A study of Mus musculus with 3 samples.

Results

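Mitochondrial and peroxisomal fatty acid oxidation was examined through 35 genes listed by symbol, out of 32285 features in each matrix. All 35 were found, each under a single identifier, and all 35 were among the 7855 genes with at least 100 counts summed over the 3 libraries, which are called measured below. By textbook location 17 encode proteins of the mitochondrion alone (Cpt2, Slc25a20, Acadm, Acadl, Acadvl, Acads, Acadsb, Hadha, Hadhb, Hadh, Echs1, Acaa2, Eci1, Decr1, Etfa, Etfb, Etfdh). Another 12 were grouped as peroxisome-only (Ehhadh, Hsd17b4, Acaa1a, Acaa1b, Scp2, Decr2, Abcd3, Abcd2, Crot, Pecr, Hacl1, Phyh). Scp2 was placed among them for its thiolase, although its counts also cover a lipid carrier, so this label is loose for that gene. Contrasts over whole libraries and between the outer tertiles are also given without it. The other 6 (Acsl1, Acsl5, Eci2, Ech1, Crat, Acad11) occur in both organelles or elsewhere in the cell as well, and were kept out of the contrast between organelles.

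The cells were primary hepatocytes of WT mice, the main metabolic cells of the liver, freed by perfusing the organ with collagenase. The HFD_HDCA mice ate a 60% high fat diet containing 0.25% hyodeoxycholic acid, a bile acid. The HFD mice ate the 60% high fat diet alone, and the ND mice ate a normal diet. All 3 diets lasted 12 weeks. Each diet was represented by 1 droplet library made with a 3′ kit, so no difference between diets has a replicate check, no p-value is given, and every interval is a 95% interval for counting error only. No source used here gives the number of mice behind a library, their sex, their age or the hour of isolation.

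Fatty acids are burned by repeated cycles of dehydrogenation, hydration, a further dehydrogenation and thiolysis, which shorten an acyl-CoA by an acetyl-CoA each time. Mitochondria, which long-chain acyl groups enter as carnitine esters, degrade the common long, medium and short chains and pass the electrons on to the respiratory chain through the electron transfer flavoprotein. Peroxisomes import very long, branched and dicarboxylic acyl-CoAs through ATP-binding transporters, shorten them with a separate set of enzymes, and hand the products on as carnitine esters. In the liver lobule blood runs from the portal vein to the central vein, and hepatocytes differ in their metabolism along that path.

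The matrices held 4873 HFD_HDCA, 6290 HFD and 5755 ND barcodes, of which 3000, 2898 and 2776 had at least 200 genes and at most 50% mitochondrially encoded counts and were retained. Retained barcodes had medians of 1117 UMIs (unique molecular identifiers, counted molecules) in HFD_HDCA, 868 in HFD and 945 in ND, and median mitochondrially encoded shares of 7.42%, 12.9% and 11.4% in the same order. Pairs of libraries shared 1 to 5 retained barcode sequences. All 8 hepatocyte markers were detected in every library and summed to 102140 counts per 1000000 nuclear-encoded counts (CPM) in HFD_HDCA, 84275 in HFD and 97149 in ND. The 8 endothelial markers summed to 85.1, 56.0 and 363 CPM, and the 8 Kupffer cell markers to 99.0, 111 and 99.0 CPM, in that same order. The 6 stellate markers summed to 27.1, 10.2 and 66.2 CPM (Lrat at 0 in HFD), and the 7 lymphocyte markers to 4.31, 7.76 and 4.68 CPM, with Cd79a and Ms4a1 at 0 in HFD_HDCA, Cd3d and Nkg7 at 0 in HFD, and Cd3e at 0 in ND. The 4 cholangiocyte markers stayed at 4.28 CPM or below, with Epcam, Krt19 and Krt7 at 0 throughout. The 4 haemoglobin genes summed to 26.2 CPM in HFD_HDCA and 342 CPM in HFD, and all 4 were at 0 in ND.

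The 35 genes took 103564 counts in HFD_HDCA (1.79% of nuclear-encoded counts), 83956 in HFD (2.25%) and 77398 in ND (1.81%). A 3′ kit tags the end of each molecule, so levels are given as CPM without division by transcript length. Peroxisome-only genes summed to 11700.0 CPM in HFD_HDCA, 16400.0 in HFD and 12735 in ND. Mitochondrion-only genes summed to 4155 CPM in HFD_HDCA, 4206 in HFD and 3827 in ND. The peroxisomal sum was therefore highest in HFD, while the mitochondrial sums of the HFD_HDCA and HFD libraries lay within counting error of each other. By point estimate, HFD held the highest level for 17 of the 35 genes, HFD_HDCA for 12 and ND for 6. The same count over all measured genes was not made. For some of the 17, such as Cpt2, Acads, Echs1 and Eci1, the intervals of all 3 libraries overlapped.

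**Figure D1:**
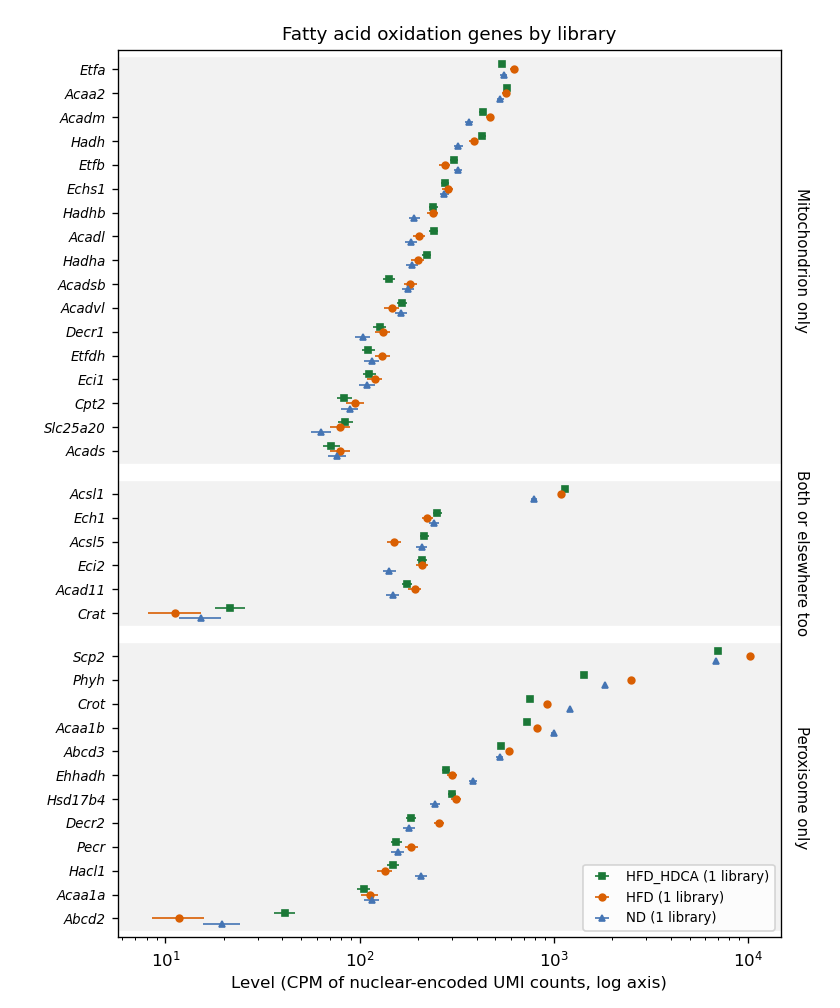
Level of each of the 35 genes in the 3 libraries, in CPM of nuclear-encoded UMI counts on a log axis, grouped by the location of the protein. Points are the library values and bars their 95% Poisson intervals (counting error only). Scp2 stands above every other gene, at 7044 CPM in HFD_HDCA, 10270.0 in HFD and 6858 in ND, and Crat and Abcd2 have the lowest levels.

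Within the peroxisomal cycle, Scp2 alone made up 60.2% of peroxisome-only counts in HFD_HDCA, 62.6% in HFD and 53.9% in ND. Scp2 encodes the thiolase SCPx, which cleaves branched-chain and bile acid intermediates, and from an internal promoter the lipid carrier SCP2, and 3′ counts do not separate the products. Its level was 7044 CPM in HFD_HDCA (6976 to 7113), 10270.0 CPM in HFD (10167 to 10373) and 6858 CPM in ND (6780 to 6937). HFD stood apart as the highest, and the intervals of HFD_HDCA and ND were close but did not overlap. Hsd17b4, the multifunctional hydratase and dehydrogenase for branched and bile acid intermediates, had 297 CPM in HFD_HDCA, 314 in HFD and 245 in ND. Ehhadh, the bifunctional enzyme that acts mainly on straight and dicarboxylic chains, had 278 CPM in HFD_HDCA, 299 in HFD and 386 in ND. The ND level was thus the lowest of the 3 for Hsd17b4 and the highest of the 3 for Ehhadh.

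Acaa1a and Acaa1b encode the straight-chain 3-ketoacyl-CoA thiolases of mouse peroxisomes. Acaa1b had 730 CPM in HFD_HDCA (708 to 752), 816 in HFD (787 to 845) and 999 in ND (969 to 1029), with no overlap of the intervals. Acaa1a had 105 CPM in HFD_HDCA, 112 in HFD and 115 in ND, with overlapping intervals. The ratio of Acaa1b to Acaa1a counts was 6.96 in HFD_HDCA (6.39 to 7.58), 7.25 in HFD (6.55 to 8.03) and 8.66 in ND (7.89 to 9.51). The genes are near copies: aligned bases of their longest protein-coding transcripts were 93.5% identical, so how reads were divided between them is uncertain. Upstream of their RefSeq starts they were less alike, with 67.6% identity over aligned bases of the last 134. These stretches are printed because the pair leaned the same way along the lobule, as described further on, at levels that differed several-fold, with the letters CCAAT or, on the other strand, ATTGG in capitals. The Scp2 stretch is printed because that gene carries most peroxisomal counts, with the letters AGGTCA, the hexamer bound by many nuclear receptors, in capitals. All are RefSeq windows on GRCm38.p6, written 5′ to 3′ on the gene's own strand and ending at the base before the start. Those for Acaa1a and Scp2 lie inside the gene's GENCODE span, and none overlaps an annotated exon.
Acaa1b, chr9:119157094-119157227, minus strand: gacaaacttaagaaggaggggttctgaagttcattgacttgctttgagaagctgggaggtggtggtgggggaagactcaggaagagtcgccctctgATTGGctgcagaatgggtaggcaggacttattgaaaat
Acaa1a, chr9:119341160-119341293, plus strand: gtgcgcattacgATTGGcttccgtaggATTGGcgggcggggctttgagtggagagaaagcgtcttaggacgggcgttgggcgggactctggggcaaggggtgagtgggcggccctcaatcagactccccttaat
Scp2, chr4:108118548-108118797, minus strand: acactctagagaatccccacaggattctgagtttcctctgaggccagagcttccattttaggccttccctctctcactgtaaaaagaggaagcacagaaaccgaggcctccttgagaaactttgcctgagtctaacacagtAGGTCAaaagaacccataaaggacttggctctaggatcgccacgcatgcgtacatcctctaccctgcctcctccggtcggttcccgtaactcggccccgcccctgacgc

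Of the auxiliary peroxisomal enzymes, Decr2, which reduces the double bonds of unsaturated chains, had 184 CPM in HFD_HDCA, 257 in HFD and 179 in ND. Its level in HFD lay above both other libraries, whose intervals overlapped. Pecr, an enoyl-CoA reductase, had 154 CPM in HFD_HDCA, 184 in HFD and 157 in ND, again with HFD highest. Alpha-oxidation removes a single carbon from methyl-branched acids such as phytanic acid. Its first enzyme, the hydroxylase Phyh, had 1427 CPM in HFD_HDCA (1397 to 1458), 2492 in HFD (2441 to 2543) and 1830 in ND (1790 to 1871). The 3 intervals were disjoint, with HFD highest and HFD_HDCA lowest. Hacl1, the lyase of the same pathway, ran differently, with 149 CPM in HFD_HDCA, 135 in HFD and 207 in ND. Here ND was the highest and the intervals of the other libraries overlapped.

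Abcd3 and Abcd2 are ATP-binding transporters that bring long, branched and very long acyl-CoAs into the peroxisome. Abcd3 had 536 CPM in HFD_HDCA, 591 in HFD and 528 in ND. Abcd2 was far rarer, with 238 counts or 41.1 CPM in HFD_HDCA (36.0 to 46.6), 44 counts or 11.8 CPM in HFD (8.56 to 15.8), and 84 counts or 19.7 CPM in ND (15.7 to 24.3). Abcd2 was the only peroxisome-only gene with its highest level in HFD_HDCA. Crot makes the carnitine esters on which shortened chains leave the peroxisome, and had 755 CPM in HFD_HDCA (732 to 777), 919 in HFD (889 to 951) and 1210 in ND (1177 to 1243). The order of libraries for Crot, lowest in HFD_HDCA and highest in ND with disjoint intervals, was the one seen for Acaa1b. By point estimate, 6 of the 12 peroxisome-only genes were highest in HFD (Hsd17b4, Scp2, Decr2, Abcd3, Pecr, Phyh). Another 5 were highest in ND (Ehhadh, Acaa1a, Acaa1b, Crot, Hacl1), and Abcd2 was highest in HFD_HDCA. How all measured genes divided by highest library was not counted, so whether this split differs from theirs was not tested.

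Mitochondrial genes spread over a narrower range, from Slc25a20 and Acads at the low end to Acaa2 and Etfa at the high end. Entry of acyl groups was represented by the exchanger Slc25a20, with 84.6 CPM in HFD_HDCA, 79.5 in HFD and 63.4 in ND, and by the inner acyltransferase Cpt2, with 83.3 CPM in HFD_HDCA, 94.5 in HFD and 89.1 in ND. The acyl-CoA dehydrogenases open the cycle and differ in the chain length they prefer. Acadm, for medium chains, had 430 CPM in HFD_HDCA, 470 in HFD and 367 in ND, and was the most abundant of them in every library. Acadl, for long chains, had 241 CPM in HFD_HDCA, 201 in HFD and 184 in ND. Acadvl, for very long chains, had 165 CPM in HFD_HDCA, 146 in HFD and 164 in ND. Acads, for short chains, had 71.6 CPM in HFD_HDCA, 79.3 in HFD and 76.7 in ND, with overlapping intervals throughout. Acadsb, for short branched chains, had 142 CPM in HFD_HDCA, 182 in HFD and 178 in ND, and HFD_HDCA lay below both others.

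Hadha and Hadhb encode the subunits of the trifunctional protein, which carries out the later steps for long chains. Hadha had 222 CPM in HFD_HDCA, 199 in HFD and 187 in ND, and Hadhb had 240 CPM in HFD_HDCA, 237 in HFD and 192 in ND. The ratio of Hadha to Hadhb counts was 0.927 in HFD_HDCA (0.859 to 0.9995), 0.837 in HFD (0.759 to 0.922) and 0.974 in ND (0.884 to 1.07), below 1 beyond counting error in HFD_HDCA and HFD. Their RefSeq starts lie 273 bases apart on opposite strands of chromosome 5. For shorter chains, the hydratase Echs1 had 275 CPM in HFD_HDCA, 284 in HFD and 273 in ND, with overlapping intervals. The dehydrogenase Hadh had 428 CPM in HFD_HDCA, 387 in HFD and 321 in ND, and the thiolase Acaa2 had 571 CPM in HFD_HDCA, 567 in HFD and 530 in ND. ND was the lowest library for both. Eci1, which moves double bonds so that unsaturated chains can enter the cycle, had 112 CPM in HFD_HDCA, 119 in HFD and 109 in ND, within counting error. Decr1, the mitochondrial dienoyl-CoA reductase, had 127 CPM in HFD_HDCA, 131 in HFD and 104 in ND.

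Electrons leave the dehydrogenases through the flavoprotein subunits Etfa and Etfb and the membrane oxidoreductase Etfdh. Etfa had 544 CPM in HFD_HDCA, 623 in HFD and 553 in ND, and Etfb had 308 CPM in HFD_HDCA, 274 in HFD and 321 in ND. HFD was the highest library for Etfa and the lowest for Etfb. The ratio of Etfa to Etfb counts was 1.77 in HFD_HDCA (1.67 to 1.87), 2.27 in HFD (2.11 to 2.44) and 1.72 in ND (1.61 to 1.84). Etfdh had 111 CPM in HFD_HDCA, 131 in HFD and 116 in ND. A direct repeat of the nuclear receptor hexamer with a single base between the copies, AGGTCANAGGTCA, is the kind of element that PPARα is known to bind with RXR. It was searched on both strands with up to 2 mismatches in RefSeq windows of 250 bases before to 50 after each start, which 30 of the 35 genes had (32 windows in all). A match was present in 3 windows (9.38%), those of Echs1, Etfa and Slc25a20, against 3.86% of all 32851 windows. The Etfa and Echs1 matches are printed with the 13 bases of each in capitals, 2 of which differ from the repeat, written as for the stretches above. The lone hexamer AGGTCA, which any exact repeat of this kind holds, occurred in 5 windows (15.6%), those of Acadm, Acadvl, Echs1, Phyh and Scp2, against 16.3% of all. CCAAT occurred in 14 windows (43.8%), against 37.4% of all. These matches describe letters in a window and say nothing of binding.
Etfa, chr9:55512294-55512334, minus strand: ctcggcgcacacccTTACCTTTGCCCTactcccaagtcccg
Echs1, chr7:140116478-140116518, minus strand: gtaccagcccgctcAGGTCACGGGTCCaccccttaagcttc

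Acsl1 and Acsl5 activate long-chain fatty acids to acyl-CoA on several membranes. Acsl1, the most abundant of the 6 genes of mixed location, had 1144 CPM in HFD_HDCA (1116 to 1171), 1087 in HFD (1053 to 1121) and 788 in ND (762 to 815). ND lay apart as the lowest. Acsl5 had 215 CPM in HFD_HDCA, 150 in HFD and 209 in ND, with HFD apart as the lowest. Eci2, an enoyl-CoA isomerase of both organelles, had 209 CPM in HFD_HDCA, 211 in HFD and 142 in ND, again with ND lowest. Ech1, a dienoyl-CoA isomerase, had 251 CPM in HFD_HDCA, 224 in HFD and 242 in ND. Acad11, an acyl-CoA dehydrogenase of long chains, had 175 CPM in HFD_HDCA, 192 in HFD and 148 in ND. Crat, the carnitine acetyltransferase that buffers acetyl-CoA, was the rarest of the 6, with 125 counts or 21.6 CPM in HFD_HDCA (18.0 to 25.7), 42 counts or 11.2 CPM in HFD (8.11 to 15.2) and 65 counts or 15.2 CPM in ND (11.7 to 19.4).

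Set against the ND library over all retained barcodes, the HFD library had most fatty acid oxidation genes at a slightly higher level. No difference was large in either direction. The peroxisomal genes separated: Scp2, Decr2, Phyh, Hsd17b4, Pecr and Abcd3 were higher in HFD, Crot, Ehhadh, Acaa1b, Hacl1 and Abcd2 were lower, and Acaa1a was nearly level. Of the 17 mitochondrial genes, 15 were above ND by point estimate, where 3412 of 7855 measured genes were. Intervals lay wholly above 0 for 7 of the 17. Acadm (log2 ratio 0.36), Decr1 (0.34) and Slc25a20 (0.33) led, and Etfb (-0.23) and Acadvl (-0.17) were below ND. The median log2 ratio was 0.13 for the 17 mitochondrial genes, 0.06 for the 12 peroxisomal genes and 0.13 for all 35, against -0.06 over all measured genes. At least 500 counts were held by 33 of the 35 and by 3406 genes in all. Among these the medians were 0.13 for mitochondrial, 0.16 for peroxisomal and 0.01 for all genes. Zones of the lobule differed in share between these libraries, as described below. With zones weighted equally, the medians were 0.03 for mitochondrial and -0.14 for peroxisomal genes (-0.08 over all measured genes).

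No gene of the 35 was at least 1.5-fold higher in HFD than in ND, where 6.91% of all measured genes were. Abcd2 (log2 ratio -0.73, interval -1.30 to -0.20) and Hacl1 (-0.62, -0.78 to -0.46) were at least 1.5-fold lower, 2 of 35, where 11.4% of all measured genes were. Among genes with at least 500 counts, which leaves out Abcd2, 5.93% were that much lower and 8.28% that much higher. None of the 35 was 2-fold apart in either direction, where 2.85% of measured genes were higher and 3.53% lower. Scp2 stood just short of the 1.5-fold line (0.58, 0.56 to 0.60), followed by Eci2 (0.56, 0.41 to 0.72), Decr2 (0.52, 0.38 to 0.66), Acsl1 (0.46, 0.40 to 0.53) and Phyh (0.45, 0.40 to 0.49). Their lowest values over the alternative settings were 0.56 for Scp2, 0.15 for Eci2, 0.22 for Decr2, 0.17 for Acsl1 and 0.34 for Phyh. On the lower side of ND but within 1.5-fold were Acsl5 (-0.48, -0.63 to -0.32), Crat (-0.43, -1.03 to 0.15), Crot (-0.40, -0.46 to -0.33), Ehhadh (-0.37, -0.48 to -0.26) and Acaa1b (-0.29, -0.36 to -0.22). Intervals lay wholly above 0 for 16 of the 35 (16.2% of measured genes) and wholly below 0 for 8 (21.3%). At a given ratio, an interval is narrower with more counts. At least 500 counts were held by 33 of the 35 but by 3406 of the 7855 measured genes, so these shares are not matched for depth.

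**Figure D2:**
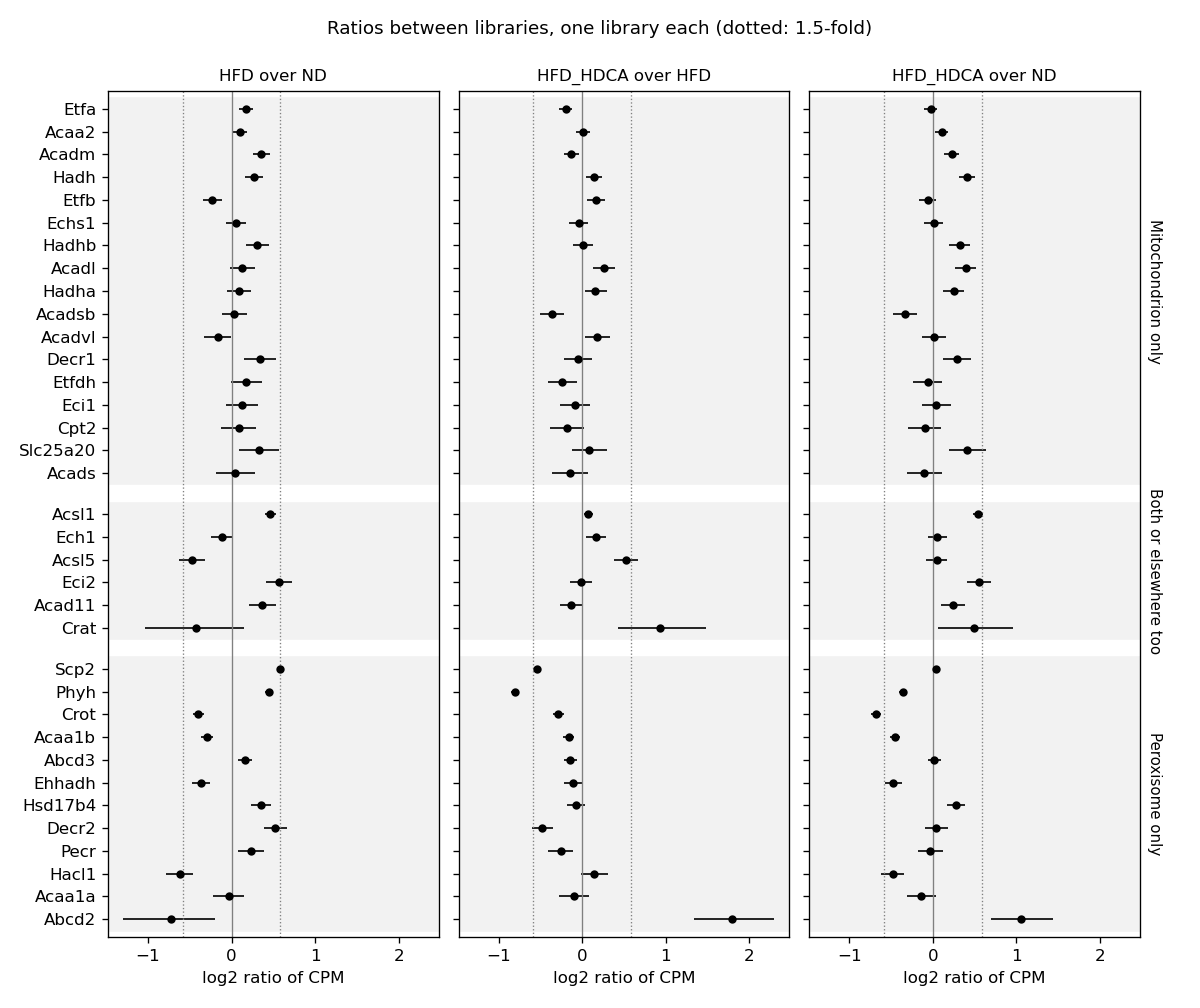
Log2 ratio of CPM between pairs of libraries for the 35 genes, grouped by the location of the protein. Points are ratios, bars their 95% conditional binomial intervals (counting error only), and dotted lines mark 1.5-fold. Mitochondrial genes lie inside the dotted lines in all 3 panels, and Abcd2 has the ratio farthest from 0 in each.

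Peroxisomal counts per mitochondrial count were 3.90 in HFD (3.83 to 3.97) and 3.33 in ND (3.27 to 3.39), a log2 contrast of 0.23 (0.19 to 0.26). The peroxisomal sum differed by 0.36 on the log2 scale and the mitochondrial sum by 0.14. This direction rested on Scp2: without it the ratio was 1.46 in HFD and 1.54 in ND, and the contrast was -0.08 (-0.12 to -0.03). Without Scp2 and Phyh it was -0.29 (-0.33 to -0.24). The HFD and ND libraries also differed in where their barcodes lay along the lobule. On cuts common to the 3 libraries, by the share of pericentral landmark UMIs, HFD had 742 periportal and 1263 pericentral barcodes and ND had 1513 periportal and 304 pericentral. With these zones weighted equally, the contrast was 0.19 and 4 genes were at least 1.5-fold lower in HFD, namely Abcd2 (-0.88), Acaa1b (-0.77), Hacl1 (-0.77) and Ehhadh (-0.66), where 13.2% of measured genes were that much lower under this weighting. Whether diet moved the landmarks themselves was not tested.

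Adding HDCA to the high fat diet went with lower peroxisomal levels and little difference in mitochondrial ones. Relative to HFD, the HFD_HDCA library was lower in 10 of the 12 peroxisomal genes by point estimate, the exceptions being Abcd2 and Hacl1. Over all measured genes, 3444 of 7855 were lower by point estimate. Phyh was the lowest in proportion, 1.75-fold lower (log2 ratio -0.80, -0.85 to -0.76), followed by Scp2 (-0.54, -0.56 to -0.52), Decr2 (-0.48, -0.61 to -0.35) and Crot (-0.29, -0.35 to -0.22). Mitochondrial genes lay on either side, 8 above and 9 below HFD, between Acadsb (-0.36, -0.51 to -0.21) and Acadl (0.26, 0.13 to 0.39). The median log2 ratio was -0.04 for mitochondrial and -0.15 for peroxisomal genes, against 0.05 over all measured genes. Per all counts, mitochondrially encoded ones included, the medians were -0.0017 and -0.11, and with median-of-ratios size factors -0.10 and -0.21, so the split of mitochondrial genes around 0 depends on the scaling.

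Abcd2 was 3.45-fold higher in HFD_HDCA than in HFD (log2 ratio 1.79, 1.33 to 2.30) and Crat 1.90-fold higher (0.93, 0.42 to 1.48), making 2 of 35 genes at least 1.5-fold higher, where 6.76% of measured genes were. Phyh was the 1 gene of 35 at least 1.5-fold lower, where 4.05% of measured genes were. At 2-fold only Abcd2 was left on the higher side (1.63% of measured genes) and none on the lower (1.48%). Both higher genes rest on few counts, 238 and 125 in HFD_HDCA against 44 and 42 in HFD. After each barcode was thinned to 500 UMIs, neither had enough counts to be measured, although the log2 ratio was 1.86 for Abcd2, HFD_HDCA against HFD, and 0.80 for Crat. Acsl5 came next on the higher side (0.52, 0.38 to 0.67). Intervals lay wholly above 0 for 10 of the 35 (18.8% of measured genes) and wholly below 0 for 11 (11.8%), and 7 of those 11 were peroxisomal. These shares too are not matched for depth.

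Peroxisomal counts per mitochondrial count were 2.82 in HFD_HDCA (2.77 to 2.86) and 3.90 in HFD (3.83 to 3.97), a log2 contrast of -0.47 (-0.50 to -0.44). Per nuclear-encoded counts, the peroxisomal sum differed by -0.49 (-0.50 to -0.47) and the mitochondrial sum by -0.02 (-0.05 to 0.01). Unlike the contrast, both sums depend on the scaling, as the medians above do. The contrast kept its sign without Scp2 (-0.38, -0.42 to -0.34) and, at a smaller size, without Scp2 and Phyh (-0.15, -0.20 to -0.11). It was smaller still as a difference of median log2 ratios, given in the closing section. The share of mitochondrially encoded counts also differed between these libraries, as given above. Among barcodes with at most 10% of such counts the ratio was 2.87 in HFD_HDCA and 4.10 in HFD, from 10% to 25% it was 2.77 and 3.79, and from 25% to 50% it was 2.54 and 3.56. HFD_HDCA was thus the lower library in each class of that share. Without barcodes that held markers of other cell types the contrast was -0.47. This comparison and the one of HFD with ND share the HFD library, so a high value there enters both with opposite sign.

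Against the ND library, HFD_HDCA had intervals wholly above 0 for 8 of the 17 mitochondrial genes and for 4 of the 6 genes of mixed location, and lower levels of one group of peroxisomal genes. That group held Crot (log2 ratio -0.68, -0.74 to -0.62), Hacl1 (-0.48, -0.61 to -0.34), Ehhadh (-0.47, -0.57 to -0.37), Acaa1b (-0.45, -0.51 to -0.39) and Phyh (-0.36, -0.40 to -0.31). Abcd2 was 2.08-fold higher (1.06, 0.70 to 1.44), Scp2 was nearly level (0.04, 0.02 to 0.06), and Hsd17b4 was somewhat higher (0.28, 0.17 to 0.39). On the mitochondrial side Hadh (0.41, 0.32 to 0.51), Slc25a20 (0.41, 0.20 to 0.63) and Acadl (0.39, 0.27 to 0.52) led, and Acadsb was the lowest (-0.33, -0.47 to -0.18). Eci2 (0.55, 0.41 to 0.70) and Acsl1 (0.54, 0.48 to 0.60) came close to 1.5-fold.

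Abcd2 was the 1 gene of 35 at least 1.5-fold higher in HFD_HDCA than in ND (7.36% of measured genes), and it also passed 2-fold (2.62%). Crot, 1.60-fold lower, was the 1 gene at least 1.5-fold lower (9.13%), and none was 2-fold lower (2.97%). Medians of the log2 ratio were 0.04 for mitochondrial genes, -0.08 for peroxisomal genes and 0.37 for the 6 of mixed location, against -0.01 over all measured genes. Among genes with at least 500 counts they were 0.04 for mitochondrial, -0.14 for peroxisomal and 0.05 for all genes. Intervals lay wholly above 0 for 15 of the 35 (19.7% of measured genes) and wholly below 0 for 6 (19.1%), and 5 of those 6 were peroxisomal. Here again the shares are not matched for depth. Peroxisomal counts per mitochondrial count were 2.82 in HFD_HDCA and 3.33 in ND, a log2 contrast of -0.24 (-0.27 to -0.21). Without Scp2 the ratio was 1.12 in HFD_HDCA and 1.54 in ND, and the contrast was -0.45 (-0.49 to -0.42). On the common zone cuts HFD_HDCA had 614 periportal and 1466 pericentral barcodes. With zones weighted equally the contrast was -0.29, and 4 genes were at least 1.5-fold lower, namely Acaa1b (-0.96), Crot (-0.82), Ehhadh (-0.80) and Hacl1 (-0.62), where 10.8% of measured genes were that much lower under this weighting.

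The lobule was then read within each library, where both ends come from the same preparation. Barcodes were ranked by the level of 8 pericentral landmark genes, such as Glul and Cyp2e1, minus that of 8 periportal ones, such as Cyp2f2 and Hal, and split at the tertiles. No gene of the 35 is a landmark. Separate check genes were in order: all 8 measured pericentral ones were over 1.5-fold lower in the periportal tertile of every library, and the 10 or 11 measured periportal ones were all higher there. Tertiles are stretches of a continuous score, and 237 HFD_HDCA, 241 HFD and 313 ND barcodes lay within 0.05 of a cut. Median depth differed between the ends, with 2625 UMIs per periportal and 1194 per pericentral barcode in HFD_HDCA, 1839 and 1014 in HFD, and 2439 and 818 in ND. Median mitochondrially encoded shares differed too, with 11.1% periportally and 6.18% pericentrally in HFD_HDCA, 13.6% and 10.5% in HFD, and 13.9% and 8.41% in ND.

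Peroxisomal genes were lower at the periportal end with few exceptions, and mitochondrial genes were less uniform. The mitochondrial sum was lower there in each library, with log2 ratios of -0.18 in HFD_HDCA, -0.17 in HFD and -0.20 in ND. The peroxisomal sum had -0.39, -0.28 and -0.19 in the same order. In the single libraries 6 of 35 genes in HFD_HDCA, 5 of 33 in HFD and 9 of 33 in ND were at least 1.5-fold lower periportally, where 7.6%, 9.29% and 13.5% of the genes with at least 100 counts in that library were. On the higher side there were 0 in HFD_HDCA, 1 in HFD (Acsl5) and 0 in ND, where 5.34%, 5.88% and 4.88% were. Of the 11 peroxisome-only genes with at least 100 counts in each library, 10 were lower periportally in all 3 libraries, and the remaining 1 was Scp2. Of the 17 mitochondrial genes 9 were lower in all 3, and of 5 measured genes of mixed location 3 were. That made 22 of 33 lower in each library, where 35.3% of 3974 measured genes were, and 0 of 33 higher in each, where 16.5% were. Acaa1b, Decr2 and Eci2 were at least 1.5-fold lower in every library, 3 of 33, where 2.84% of measured genes were, and 0 of 33 were that much higher in every library, where 1.69% were. After thinning to 500 UMIs, Acaa1b and Eci2 kept that size in every library and Decr2 did not, with -0.28 in HFD_HDCA, and 9 of the 11 peroxisomal genes were lower in all 3, Hacl1 being the other exception beside Scp2. Abcd2 and Crat were below the count minimum in the HFD and ND libraries.

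**Figure D3:**
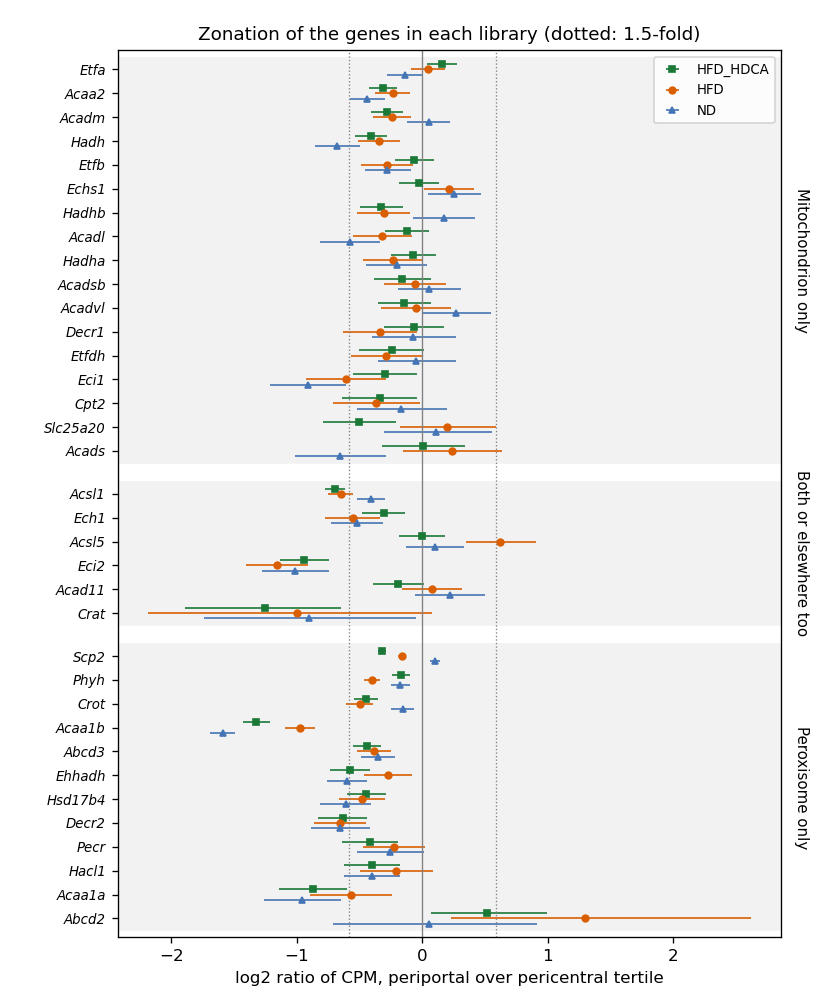
Log2 ratio of CPM between the periportal and the pericentral tertile of barcodes for the 35 genes in each library, grouped by the location of the protein. Points are ratios, bars their 95% conditional binomial intervals (counting error only), and dotted lines mark 1.5-fold. Among genes with at least 100 counts in each library, Acaa1b lies farthest below 0 in HFD_HDCA and ND and Eci2 in HFD, and Scp2 is below 0 in HFD_HDCA and HFD and above 0 in ND.

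Among genes with at least 100 counts in each library, Acaa1b had the ratios farthest from 0 in HFD_HDCA and ND, and Eci2 in HFD. Acaa1b had 422 CPM periportally and 1054 CPM pericentrally in HFD_HDCA, a log2 ratio of -1.32 (-1.43 to -1.22). In HFD it had 535 and 1051 CPM (-0.98, -1.10 to -0.85), and in ND 582 and 1752 CPM (-1.59, -1.69 to -1.49). The level in the pericentral tertile, which was cut within each library, was higher in ND than in either high fat library. With barcodes thinned to 500 UMIs the Acaa1b ratios were -0.62 in HFD_HDCA, -1.02 in HFD and -1.04 in ND, so their order by steepness changed with thinning. Its near copy Acaa1a leaned the same way, with -0.87 in HFD_HDCA, -0.57 in HFD and -0.96 in ND. Eci2 had 137 CPM periportally and 263 pericentrally in HFD_HDCA (-0.94), 129 and 289 in HFD (-1.16), and 104 and 209 in ND (-1.01). Decr2 had 149 and 231 CPM in HFD_HDCA (-0.64), 204 and 322 in HFD (-0.66), and 153 and 241 in ND (-0.65), and after thinning -0.28, -0.69 and -0.60.

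The hydratase and dehydrogenase enzymes shared the direction at smaller size. Ehhadh had log2 ratios of -0.58 in HFD_HDCA, -0.28 in HFD and -0.60 in ND, and Hsd17b4 had -0.45, -0.48 and -0.61 in the same order. Among transport genes, Abcd3 had -0.44 in HFD_HDCA, -0.39 in HFD and -0.35 in ND, and Crot -0.45, -0.50 and -0.16. Phyh, Pecr and Hacl1 were lower periportally by between 0.17 and 0.42 on the log2 scale in each library. Scp2 differed between libraries: it had 6379 CPM periportally and 7988 pericentrally in HFD_HDCA (-0.32, -0.36 to -0.29), 9941 and 11098 in HFD (-0.16, -0.19 to -0.13), and 7164 and 6684 in ND (0.10, 0.06 to 0.14).

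Mitochondrial genes were less uniform. Eci1 had log2 ratios of -0.30 in HFD_HDCA, -0.61 in HFD and -0.91 in ND, the farthest from 0 of the mitochondrial genes in HFD and ND, and Hadh had -0.41, -0.34 and -0.68. Acaa2 was also lower periportally in each library, with -0.31 in HFD_HDCA, -0.23 in HFD and -0.44 in ND. The others lower in all 3 were Cpt2, Acadl, Hadha, Decr1, Etfb and Etfdh. Acads was level in HFD_HDCA (0.01), higher periportally in HFD (0.24) and lower in ND (-0.66, -1.02 to -0.29). Echs1, Etfa, Acadm, Acadvl, Acadsb, Hadhb and Slc25a20 likewise changed sign between libraries, none of them beyond 1.5-fold. Acsl1, of the mixed group, was lower periportally throughout, with -0.70 in HFD_HDCA, -0.65 in HFD and -0.41 in ND. Acsl5 was higher periportally in HFD (0.62, 0.35 to 0.91) and nearly level in HFD_HDCA (-0.0048) and ND (0.10).

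Over all counts, the ratio of peroxisomal to mitochondrial counts differed little along the lobule. It was 2.65 periportally and 3.09 pericentrally in HFD_HDCA, a log2 contrast of -0.22 (-0.27 to -0.17). In HFD it was 3.82 and 4.11 (-0.11, -0.16 to -0.05), and in ND 3.43 and 3.40 (0.01, -0.05 to 0.07). Without Scp2 the ratio was lower periportally in every library and by nearly the same amount, with 1.01 and 1.27 in HFD_HDCA (-0.33, -0.38 to -0.27), 1.31 and 1.62 in HFD (-0.31, -0.38 to -0.25), and 1.44 and 1.79 in ND (-0.31, -0.38 to -0.24). With barcodes thinned to 500 UMIs before scoring, these contrasts without Scp2 were -0.16 in HFD_HDCA (-0.28 to -0.03), -0.40 in HFD (-0.54 to -0.26) and -0.26 in ND (-0.39 to -0.13).

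**Figure D4:**
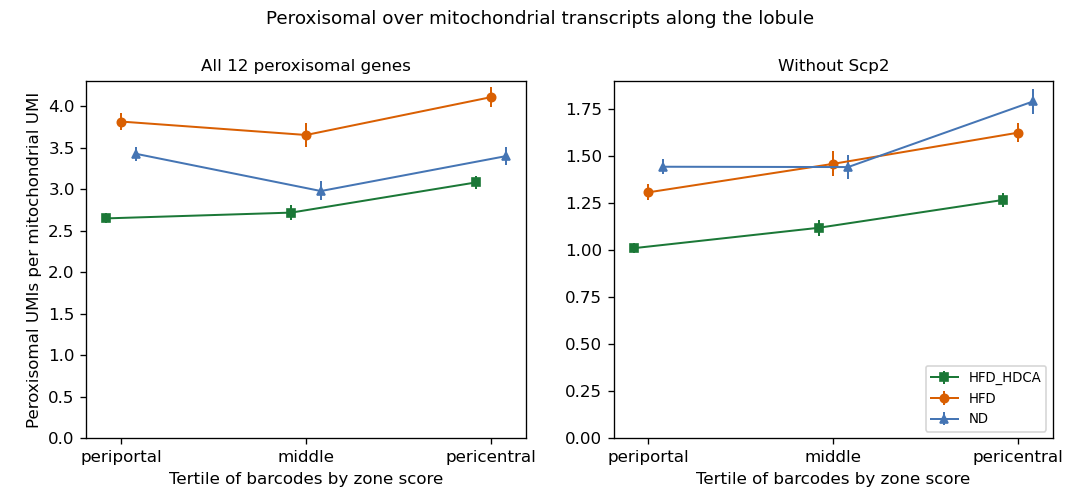
Summed UMIs of the peroxisome-only genes per UMI of the mitochondrion-only genes in the periportal, middle and pericentral tertiles of each library, with all 12 peroxisomal genes (left) and without Scp2 (right). Bars are 95% intervals (counting error only) and both vertical axes start at 0. With Scp2, HFD has the highest ratio in each tertile, and without it each library has its highest ratio at the pericentral end.

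The difference between diets was also read within tertiles. Because tertiles were cut within each library, the same tertile need not be the same stretch of the lobule in different libraries. On the common cuts ND had 304 pericentral barcodes and HFD 1263, against 925 and 966 in their pericentral tertiles. Diet and position could not be told apart in these values. The middle tertile was also the shallowest in each library, with medians of 845 UMIs in HFD_HDCA, 587.5 in HFD and 749 in ND. The contrast of HFD_HDCA with HFD was -0.53 periportally, -0.43 in the middle and -0.41 pericentrally, so its sign was the same in each. For HFD_HDCA with ND it was -0.37 (-0.42 to -0.32) periportally, -0.13 in the middle and -0.14 (-0.20 to -0.08) pericentrally. For HFD with ND it was 0.15 periportally, 0.29 in the middle and 0.27 pericentrally. Phyh was lower in HFD_HDCA than in HFD at both ends, with a log2 ratio of -0.68 (-0.75 to -0.62) periportally and -0.92 (-0.99 to -0.85) pericentrally. Scp2 was higher in HFD than in ND in each tertile, by 0.47 periportally, 0.60 in the middle and 0.73 pericentrally.

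A further 56 genes of acyl-CoA activation, acyl-CoA oxidation, ketone body synthesis and peroxisome assembly were counted for context, of which 52 were measured. In HFD against ND, 7 were at least 1.5-fold higher (6.91% of all measured genes) and 3 lower (11.4%), and 2 passed 2-fold: Cpt1a, the acyltransferase that controls mitochondrial entry, with 300.4 CPM in HFD and 149 in ND (log2 ratio 1.01, 0.87 to 1.15), and Ppara, the fatty acid sensing receptor, with 98.0 CPM in HFD and 42.3 in ND (1.21). In HFD_HDCA against HFD, 1 was at least 1.5-fold higher (6.76% of all) and 2 lower (4.05%), and in HFD_HDCA against ND, 8 were higher (7.36%) and 2 lower (9.13%). Acsl3, an acyl-CoA synthetase of lipid droplets, was the only gene past 2-fold in those comparisons, with 82.1 CPM in HFD_HDCA, 39.1 in HFD and 30.6 in ND. Cpt1a, the gatekeeper, thus differed more between HFD and ND than the downstream carnitine shuttle genes Cpt2 (log2 ratio 0.08) and Slc25a20 (0.33), whose intervals lay below that of Cpt1a.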

How the data were processed

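The authors deposited UMI counts per gene and barcode as 1 matrix per library. The file headers name Cell Ranger 5.0.0, and the submitters' processing notes name mm10. How barcodes were chosen and how reads were aligned was not given in the sources used here. Barcodes with at least 200 genes and at most 50% mitochondrially encoded counts were retained, and doublets were not removed. Counts were summed per library or tertile and divided by nuclear-encoded counts. Log2 ratios added 0.5 to each count, with exact conditional binomial intervals; levels have exact Poisson intervals, and the contrast between organelles a Wald interval. Measured genes had at least 100 counts over the 3 libraries, or, for zones, in a single library. Zone scores averaged within-library z-scores of log-transformed counts per 10000. With 1 library per diet no test was made. UMIs of all retained barcodes (4323108 to 6515814 per library) set the precision, and every interval covers counting error only. The procedure was tested on simulated counts. Members, compartments and lists were chosen with earlier results of these data known. All 35 genes are named, and of the 56 context genes those past 2-fold, up to 4 in each direction; others were named after their values were seen. Alternatives covered cell filters, depth, weighting, scaling, the count minimum, zone scores and the genes in the contrast; leaving out Scp2 or Phyh and splitting by mitochondrially encoded share were added after seeing the data. Python 3.11.15, numpy 2.4.6, scipy 1.17.1, pandas 2.3.3 and matplotlib 3.10.9 were used. Coordinates are from GENCODE and RefSeq on GRCm38.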

Additional observations from a re-analysis of the deposited data

Results flagged for a closer look

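Scp2 took opposite directions in HFD_HDCA against ND in the periportal and pericentral tertiles, which were cut within each library. Its log2 ratio was -0.17 (-0.20 to -0.14) in the periportal tertile, with 6379 CPM in HFD_HDCA and 7164 CPM in ND. In the pericentral tertile it was 0.26 (0.22 to 0.30), with 7988 CPM in HFD_HDCA and 6684 CPM in ND. On the common cuts HFD_HDCA had 614 periportal and 1466 pericentral barcodes, and ND had 1513 and 304. Diet and position along the lobule could therefore not be told apart. The difference between the tertiles was not tested, because each diet had 1 library.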

How the results depend on the processing

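No paired analysis was possible because each diet had 1 library, and leaving out replicates was not possible for the same reason. The contrast of HFD with ND (0.23) turned to -0.069 without the most abundant gene of each organelle, to -0.075 without Scp2, to -0.29 without Scp2 and Phyh, and to -0.066 as a difference of median log2 ratios. It was 0.32 after thinning to 500 UMIs, 0.19 over common zone bins (weighted equally), 0.17 with the genes of mixed location put in by their place in the list, 0.36 in barcodes with at most 10% mitochondrially encoded counts and 0.14 in those from 10% to 25%. That of HFD_HDCA with HFD (-0.47) was -0.55 after thinning, -0.41 without the most abundant genes, -0.38 without Scp2, -0.15 without Scp2 and Phyh, -0.11 by medians and -0.51 at up to 10%. That of HFD_HDCA with ND (-0.24) was -0.29 over common zone bins, -0.32 with the mixed genes, -0.48 without the most abundant genes, -0.45 without Scp2, -0.44 without Scp2 and Phyh, -0.12 by medians, -0.15 at up to 10% and -0.31 from 10% to 25%.

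Between tertiles, the contrast in HFD_HDCA (-0.22) was -0.090 with the mixed genes, -0.28 without the most abundant genes, -0.33 without Scp2, -0.48 without Scp2 and Phyh, -0.28 by medians and -0.085 after thinning. In HFD (-0.11) it turned to 0.0003 with the mixed genes, and was -0.28, -0.31 and -0.37 under the same removals in turn, and -0.17 after thinning. In ND (0.01) it was -0.30, -0.31 and -0.46 under those removals and -0.24 by medians. Crat in the HFD_HDCA tertiles turned to 0.14 after thinning.

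Counts of genes at least 1.5-fold apart were small and moved as follows. For HFD against ND, the count of genes higher (0) was 1 at up to 20% mitochondrially encoded counts, at 500 genes or more, after thinning, with barcodes weighted equally and per all counts, and 3 with median-of-ratios factors. The count lower (2) was 1 at 500 genes or more, with median-of-ratios factors and at a minimum of 500 counts, 0 after thinning and 4 over common zone bins. For HFD_HDCA against HFD, the count higher (2) was 0 after thinning and at a minimum of 500 counts, and the count lower (1) was 2 after thinning and with median-of-ratios factors. For HFD_HDCA against ND, the count higher (1) was 2 at up to 20%, with barcodes weighted equally and per all counts, and 0 after thinning and at a minimum of 500 counts, and the count lower (1) was 4 over common zone bins. At 500 UMIs or 500 counts Abcd2 and Crat were not measured, which limits what can be said of both. Of 1470 values for single genes under these settings, 79 had another sign than the reported one, of which 1, that of Crat, belonged to a difference of at least 1.5-fold. Where no removal of a named gene shows it, the cause was not tested.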
